A study of Capra hircus with 4 samples.

Results

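The genes described here are those that the authors listed for the Primordial stage in their deposited table of granulosa cell (GC) genes during follicle development. The members are the rows of that table whose stage is Primordial, 1461 of 5452 rows, and each row holds a different gene. The other rows are Primary (1457), Secondary (1305) and Antral (1229), and the table names 3231 genes in all. Each row gives the share of nuclei in the stage in which a transcript of the gene was seen and the share over the nuclei of the other 3 stages. These are the authors' values, pooled over all animals, so they carry no SD and no n, and since the rows were chosen by setting the stage against the other stages they are given as a description with no test.

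A primordial follicle is an oocyte at rest inside a single layer of flat GCs. On activation the GCs become cuboidal (primary), form several layers (secondary), and around a fluid-filled cavity separate into cumulus GCs beside the oocyte and mural GCs along the wall (antral). Pregranulosa cells are known for the transcription factor FOXL2 and for KITLG, the ligand through which GCs activate the KIT receptor of the oocyte, while the receptor for follicle-stimulating hormone, FSHR, and aromatase, CYP19A1, which makes estradiol, belong to growing and antral follicles.

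Ovaries came from 2 Nubian goats, the study's group with a litter size of 3, and 2 Du'an goats, its group with a litter size of 1. All 4 were about 3 years old, and all received 300 mg progesterone from an intravaginal device for 17 days to synchronize estrus. Nuclei of each ovary were sequenced as 1 library, and the 4 libraries held 48332 nuclei, with 40573246 and 60566681 transcript counts (unique molecular identifiers, UMIs) in Du'an 1 and Du'an 2 and 71613892 and 52783453 in Nubian 1 and Nubian 2. Breed and litter size cannot be told apart in these goats, whole ovaries at estrus were taken rather than staged follicles, and how a nucleus was given its stage is not given in the sources used here.

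In the Primordial rows, the share of stage nuclei with a transcript ran from 18.4% to 99.9%, with a median of 41.9% against 38.2% in the other stages. The difference ran from -16 to 43 points with a median of 0.1 points. It was positive in 735 rows, 0 in 12 and negative in 714, so 48.9% of the genes listed for the stage were seen in a smaller share of its nuclei than of the others. Such rows numbered 7 under Primary, 15 under Secondary and 2 under Antral. Only 37 Primordial rows differed by at least 25 points, against 45 under Primary, 9 under Secondary and 133 under Antral. At that limit ANTXR1 (81.3% against 55.9%) lay just inside and GADD45A (27.7% against 2.8%) just outside. In every row at least 1 of the 2 shares was 25.1% or more, so rarer transcripts could not be listed. A Primordial row was held by 7.41% of the 19716 genes seen in at least 5 nuclei and by 54.4% of the 2686 genes seen in at least 25% of nuclei on either side, so among readily seen genes a row was the common state. Of the 1461 genes, 1443 are protein-coding and 13 are long non-coding RNAs.

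**Figure D1:**
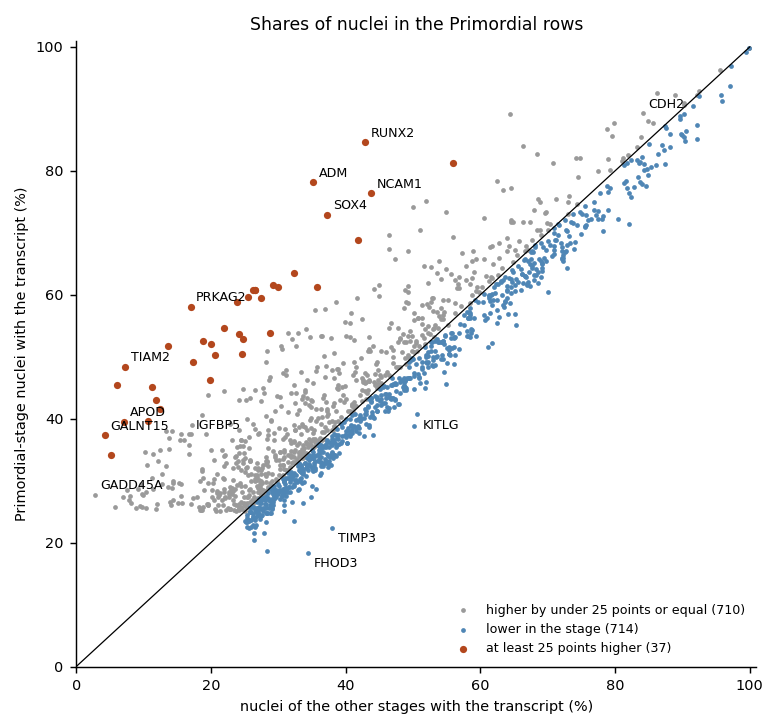
Each point is 1 of the 1461 genes listed for the Primordial stage, with the share of stage nuclei (vertical axis, %) against the share of nuclei of the other stages (horizontal axis, %), both the authors' pooled values. The 37 genes at least 25 points higher lie farthest above the line of equal shares, with no gap to the rest, and 714 genes lie below the line.

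The 20 largest differences among genes with a symbol held none of 15 GC identity markers. Adrenomedullin (ADM), a vasodilator peptide, was seen in 78.2% of stage nuclei and 35.2% of the others, and RUNX2, the master transcription factor of bone-forming cells, in 84.6% and 42.9%. The other transcription factors among the 20 largest differences were SOX4, known from progenitor cells of many tissues, at 72.9% and 37.3%, and BACH2, a repressor best known from B cells, at 58.8% and 23.8%. Regulators of RAC, the GTPase that drives membrane ruffling, were TIAM2 at 48.4% and 7.3% and DOCK4 at 54.7% and 22.0%. PRKAG2, a subunit of the energy sensor AMPK, stood at 58.1% and 17.0%, and RAB31, a GTPase of membrane traffic, at 45.4% and 6.0%. CALD1 (60.8% and 26.3%) binds actin, AHNAK (52.1% and 20%) is a large scaffold protein, and NCAM1 (76.4% and 43.8%) joins neighbouring cells.

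ERRFI1, which inhibits the epidermal growth factor receptor, was seen in 60.8% and 26.5% of nuclei, DAPK1, a kinase that promotes cell death, in 61.5% and 29.2%, and RASSF3, of a family of Ras-binding proteins, in 59.6% and 25.5%. CDK14, a kinase that takes part in WNT signalling, was seen in 60.7% and 26.6%, and TNFRSF19, of the tumour necrosis factor receptor family, in 45.1% and 11.3%. The remaining genes were VWA5A (51.7% and 13.6%), RIMS1 of the synaptic vesicle release machinery (52.5% and 18.8%), the glycosyltransferase GALNT15 (37.3% and 4.2%) and the lipid carrier APOD (39.5% and 7.1%). By ratio, GADD45A, which is induced by DNA damage and arrests the cell cycle, led with a share 9.89 times that in the other stages, followed by GALNT15, RAB31, TIAM2 and GUCY1A2 (34.2% and 5.2%), a subunit of the nitric oxide receptor. The highest shares among genes with a symbol were those of GPC5, LUZP2, TCF12, SPATA31C2 and FOXP1, with FOXP1, the lowest of them, at 93.7% of stage nuclei and 97.0% of the others.

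At the other end, the lowest differences were those of the formin FHOD3 (18.4% against 34.4%), TIMP3, an inhibitor of matrix metalloproteinases (22.4% against 38.0%), KIAA1217 (38.8% against 50.2%), the cytoskeletal linker DST (71.5% against 82.0%) and IMMP2L (55.2% against 65.3%), a subunit of a mitochondrial peptidase. KITLG belonged on this side too, at 40.7% in the stage and 50.6% outside it.

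Of the 1461 genes, 879 had a row under at least 1 other stage, 512 under Primary, 452 under Secondary and 227 under Antral, and none under all 3. As a share of the Primordial list these were 35.0%, 30.9% and 15.5%, and as a share of the other list 35.1%, 34.6% and 18.5%. The share in the other stage was the higher one in 482 of 512 genes shared with Primary, in 405 of 452 shared with Secondary and in 221 of 227 shared with Antral. Most of the genes low in the Primordial stage were listed for other stages as well: 590 of the 714 rows with a lower share had a row elsewhere, but of the 37 rows with a difference of at least 25 points only that of BACH2, seen in 58.8% of Primordial and 43.6% of Primary nuclei, did. KITLG was also an Antral gene (53.7% of Antral nuclei), and CDH2, the N-cadherin of GCs, was seen in 89.3% of Primordial, 95.1% of Primary and 90.5% of Secondary nuclei. Some progenitor-side genes had no second row among the stages, RUNX2, SOX4 and CDK14 among them, while CCND3, a D cyclin, was seen in 40.6% of Primordial and 34.4% of Primary nuclei.

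The Primordial rows were set against those of common progenitor GCs in the authors' second table, which divides the same kind of nuclei into 3 GC subtypes. Common progenitor GCs had 1449 rows, and 1398 genes were in both lists, 95.7% of the Primordial and 96.5% of the common progenitor genes. For these the share of Primordial nuclei and the share of common progenitor nuclei were the same to the last printed digit in 679 genes, lay within 0.1 points in 1303, and differed at most by 0.3 points. SOX4, for instance, was seen in 72.9% and 73.0%, FOSL2 in 53.6% and 53.4%, and RUNX2 in 84.6% of both. The common progenitor rows therefore give no independent view of the Primordial ones. The lists differ mainly in what they were set against: in 1248 of 1398 genes the difference was larger against the other subtypes than against the other stages. All 37 genes with at least 25 points in the stage table passed that limit in the subtype table as well. The 63 Primordial genes outside the common progenitor list had small differences, from -9.3 to 4.4 points.

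**Figure D2:**
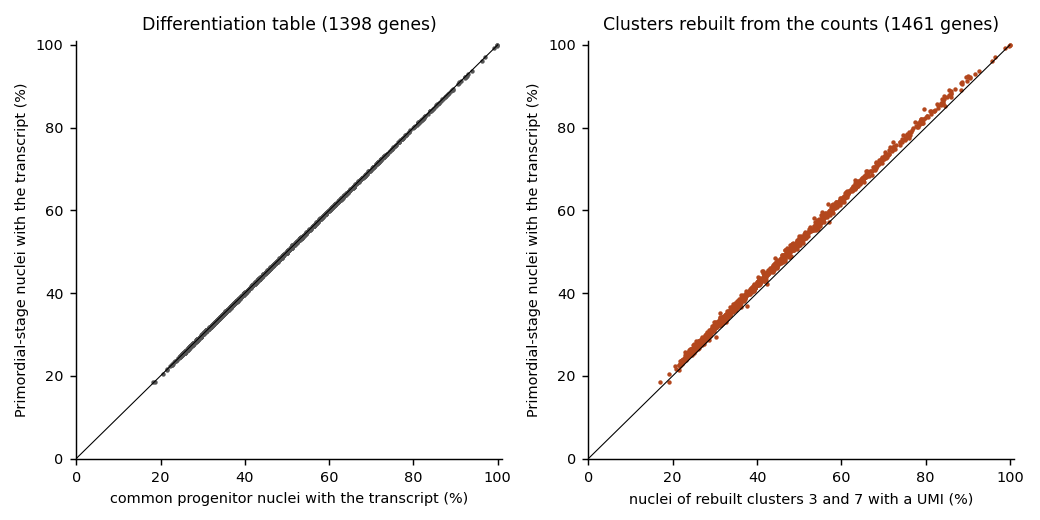
The share of Primordial-stage nuclei with each transcript (vertical axes, %) is plotted against the authors' share of common progenitor nuclei (left, 1398 genes) and against the share of nuclei with a UMI in clusters 3 and 7 rebuilt from the counts (right, 1461 genes). Points on the left follow the line of equal shares to within 0.3 points, and most of those on the right lie just above it.

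Neither table states how many nuclei a stage held. Since the overall share of nuclei with a gene must be the same whichever stage it is computed from, genes with rows under several stages fix the sizes. A least-squares fit to 2221 pairs of rows put the Primordial stage at 29.8% of the table's nuclei, Primary at 22.0%, Secondary at 16% and Antral at 32.3%, with a residual of 0.0338 points. In the subtype table common progenitor GCs held 33.6% of nuclei. Genes with differences of at least 10 points alone gave 29.9% for Primordial.

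The deposited counts were then clustered again, without the 1461 genes among the variable genes, to see which goats these nuclei came from. Of 44872 nuclei kept, 23703 fell into 10 clusters whose profile followed a GC stage. Of 27 clusters, 2 resembled the Primordial shares most: cluster 3, with 4994 nuclei and Pearson's r = 0.986 across the 1461 genes, and cluster 7, with 2174 nuclei and r = 0.948. Other clusters were not far below: r with the Primordial shares was 0.909 in cluster 18, itself most like the Primary shares. It was 0.830 in cluster 4, outside the GC set. Genes are not independent replicates, and the limit of r was set after the values were seen. Clusters 3 and 7 were picked by r with these shares, so the next values are descriptions and no test. Together the 7168 nuclei of clusters 3 and 7, called matched nuclei below, gave r = 0.999 with the authors' shares and a median absolute difference of 2.08 points, and they made up 30.2% of the GC set. Of 7163 barcodes among them, 5 occurred in more than 1 library.

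The matched nuclei were spread very unevenly over goats and not by breed. They made up 65.9% of GC nuclei in Du'an 1 (2973 of 4512, exact 95% binomial interval 64.5 to 67.3%) and 60.1% in Nubian 2 (3222 of 5360, 58.8 to 61.4%). In Du'an 2 they made up 6.75% (353 of 5227, 6.09 to 7.47%) and in Nubian 1 7.21% (620 of 8604, 6.67 to 7.77%). Each breed thus had 1 goat high and 1 goat low. The mean was 36.3% ± 41.8 (SD, n = 2) in Du'an and 33.7% ± 37.4 in Nubian goats, a difference of -2.66 points (two-sided exact permutation test, p = 1, the smallest p that 2 goats against 2 allow being 0.33). Of all matched nuclei, 41.5% came from Du'an 1 and 44.9% from Nubian 2, whereas 29.5% and 48.3% of the other GC nuclei came from Du'an 2 and Nubian 1. In the authors' pooled shares the stage and the goat therefore cannot be fully told apart, and values by goat follow. The other GC nuclei were not the same mix in each goat. Cluster 2, most like the Antral shares, held 2 nuclei of Du'an 1, 220 of Du'an 2, 4779 of Nubian 1 and 57 of Nubian 2. Cluster 1, most like the Primary shares, held 953, 1886, 1730 and 958. The part of this mix in the differences between matched and other GC nuclei by goat was not tested. The median share of mitochondrial UMIs was 0.86% in matched against 0.40% in other GC nuclei in Du'an 2 and 2.01% against 1.31% in Nubian 1, but 0.38% in both in Du'an 1 and 0.68% against 0.67% in Nubian 2, and its part in the values by goat was not tested. The intervals cover counting error only.

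**Figure D3:**
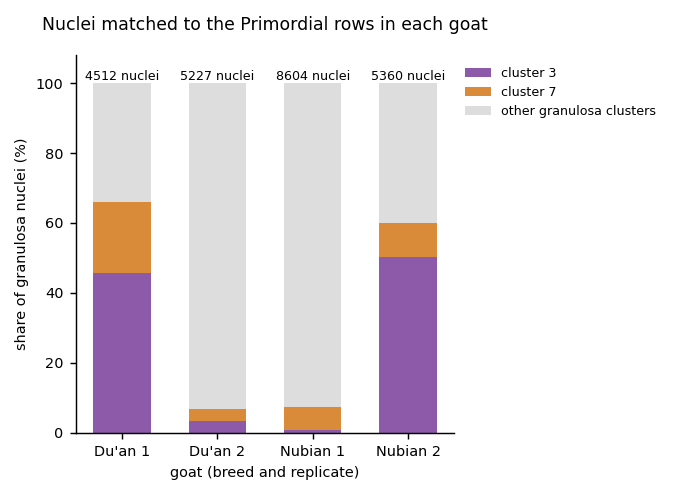
Stacked bars give the share of each goat's GC nuclei (vertical axis, %) in cluster 3, in cluster 7 and in the other GC clusters, with the number of GC nuclei above each bar. Clusters 3 and 7 hold 65.9% and 60.1% of nuclei in Du'an 1 and Nubian 2 but 6.75% and 7.21% in Du'an 2 and Nubian 1.

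Of the 37 genes with at least 25 points in the table, the share of nuclei with a UMI was higher in matched than in other GC nuclei in 4 of 4 goats in 35, and the level, as counts per 1000000 UMIs summed over nuclei (CPM), in all 37. The 2 exceptions by share were SLC24A3, lower by a little in Nubian 1 (9.68% against 9.84%), and LOC102178253, lower in Du'an 2 (34.0% against 35.8%). Across the 5064 genes seen in at least 10% of GC nuclei the corresponding figures were 7.98% by share and 20.7% by CPM. The table chose these genes on the same nuclei, so the counts describe how evenly the goats carried them and test nothing.

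RUNX2 was seen in 87.9% of matched nuclei of Du'an 1, 72.0% of Du'an 2, 90.5% of Nubian 1 and 70.6% of Nubian 2. In the other GC nuclei of the same goats it was seen in 66.4%, 42.7%, 39.5% and 40.0%. Outside the GC set it was seen in 61.0%, 43.7%, 44.7% and 40.8% of nuclei. How much of such shares came from RNA free in the suspension was not tested, for RUNX2 or any other gene. Its level in matched nuclei was 5946, 8048, 8064 and 3029 CPM, against 701, 250, 203 and 282 CPM, so the ranges did not overlap. TIAM2 had the smallest spread over goats of the 20 leading genes, with 44.6%, 35.1%, 42.4% and 45.3% of matched nuclei against 11.7%, 5.09%, 6.88% and 12.0% of the others, a mean difference of 33.0 points ± 2.26 (SD, n = 4), which became 20.8 points with every nucleus thinned to 1000 UMIs. SOX4 differed little between goats in matched nuclei, at 859, 833, 890 and 777 CPM, and more in the others, at 295, 200, 149 and 146 CPM. ADM was higher in each goat as well, but its matched level ran from 344 CPM in Du'an 2 and 489 CPM in Nubian 1 to 816 CPM in Nubian 2 and 1491 CPM in Du'an 1. GADD45A was seen in 25%, 21.8%, 30% and 24.6% of matched nuclei against 5.91%, 2.54%, 2.10% and 6.50% of the others, and so did not overlap.

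2 of the 20 leading genes depended on Du'an 1 and Nubian 2. GALNT15 was seen in 38.7% of matched nuclei in each of these goats, but in 7.65% of Du'an 2 and 4.35% of Nubian 1, against 9.55% and 6.36% of the other GC nuclei of Du'an 1 and Nubian 2 and 2.59% and 3.98% of those of Du'an 2 and Nubian 1. APOD was seen in 46.0% and 34.6% of matched nuclei in Du'an 1 and Nubian 2, and in 12.5% and 10% in the other two. With each goat given the same weight the difference was 16.7 points ± 16.3 (SD, n = 4) for GALNT15 and 15.7 ± 12.8 for APOD. Thinned to 1000 UMIs a nucleus, GALNT15 differed by 6.80 points and was lower in matched nuclei of Nubian 1 (0.90% against 1.32%), and it was then the 1 gene of the 37 not higher in 4 of 4 goats.

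**Figure D4:**
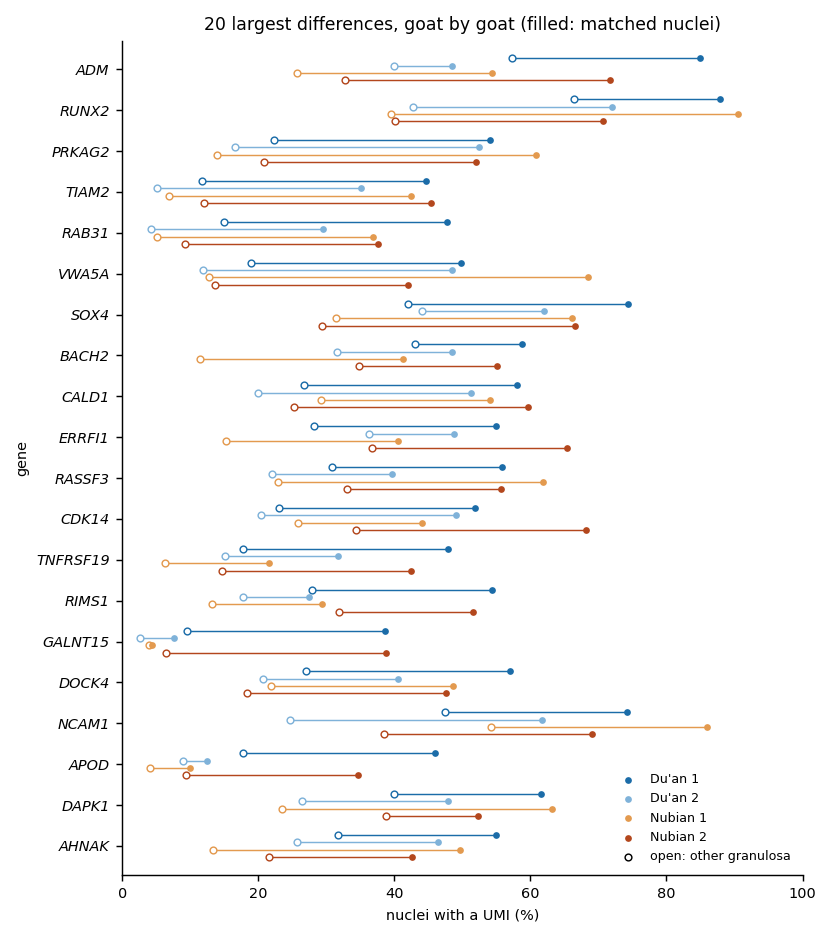
For the 20 genes with the largest differences, the share of nuclei with a UMI (horizontal axis, %) is shown in matched nuclei (filled) and other GC nuclei (open) of each goat. Every filled point lies to the right of its open point, by least for GALNT15 in Nubian 1 (4.35% against 3.98%).

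Set against the rest of the ovary, 13 of the 20 leading genes had their highest mean level in matched nuclei among 12 classes of nuclei. The 20 genes were picked for a high share in this stage, and no figure over all genes stands beside these ranks. The counts of genes in this paragraph are therefore descriptions, with nothing read from them. RUNX2 averaged 6272 CPM ± 2380 (SD over 4 goats) in matched nuclei and 1266 ± 305 in fibroblast-like nuclei, the next class. SOX4 averaged 840 ± 48.0 CPM, and epithelial-like nuclei followed with 496 ± 356 CPM. NCAM1, TIAM2, BACH2, DAPK1, RASSF3, VWA5A, RAB31, RIMS1, ERRFI1, ADM and GALNT15 also ranked first by the mean. Only for RUNX2, TIAM2 (458 ± 71.3 against 177 ± 72.1 CPM in fibroblast-like nuclei) and BACH2 (634 ± 129 against 350 ± 100 CPM in T or natural killer-like nuclei) was the mean less 1 SD above the mean plus 1 SD of the next class, and for the other 10 these ranges overlapped. For ADM, theca-like nuclei came next with 585 ± 181 CPM against 785 ± 510 CPM, which lies within the spread over goats, and ERRFI1 (770 ± 341 against 697 ± 206 CPM in smooth muscle-like nuclei) and RAB31 (266 ± 62.8 against 231 ± 65.5 CPM in fibroblast-like nuclei) were as near. GALNT15 (91.1 ± 85.5 against 54.4 ± 22.0 CPM in smooth muscle-like nuclei) and RIMS1 (476 ± 279 against 345 ± 150 CPM in T or natural killer-like nuclei) lay within the spread as well. The other 7 had their highest mean elsewhere: CALD1 and CDK14 in pericyte-like nuclei (4896 ± 724 and 1071 ± 602 CPM), AHNAK and DOCK4 in blood endothelial-like, PRKAG2 in lymphatic endothelial-like, TNFRSF19 in smooth muscle-like and APOD in fibroblast-like nuclei.

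The direction of the shares was set beside level and depth. The authors picked all 1461 genes for this stage on the same nuclei, so the counts that follow are descriptions and the background is given with nothing read from it. Matched nuclei had a median of 3633 UMIs and the other GC nuclei 4140. By goat the medians were 4126 against 3585 in Du'an 1, 3907 against 5578.5 in Du'an 2, 3334.5 against 3530 in Nubian 1 and 3373 against 3813.5 in Nubian 2. At the nuclei's own depth 809 of the 1461 genes had a higher share in matched nuclei. With every nucleus thinned to 1000 UMIs the number was 1345, after 1171 matched and 1456 other nuclei below that depth were left out, and by CPM it was 1369. Of the 714 genes with a lower share in the table, 69 were higher in matched nuclei by share, 600 after thinning and 625 by CPM (9.66%, 84.0% and 87.5%), while over the 5064 genes the figures were 29.1% by share and 48% after thinning and by CPM. The number of goats showing the direction was smaller: 236 genes were higher in 4 of 4 goats by share, 539 after thinning and 657 by CPM, where the corresponding figures over the 5064 genes were 7.98%, 15.7% and 20.7%. Of the 714 genes, 4, 96 and 150 did so (0.56%, 13.4% and 21.0%).

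By share, 1065 of the 1461 genes were higher in matched nuclei in Du'an 1, 973 in Nubian 1, 750 in Nubian 2 and 301 in Du'an 2, the goat whose matched nuclei were the shallowest relative to its other GC nuclei. In the same order the numbers were 1056, 1052, 1169 and 829 after thinning and 1128, 1079, 1203 and 918 by CPM, so Du'an 2 stayed lowest. By share with the goats weighted equally, 641 genes were higher, with a median difference of -0.80 points, and 159 of the 735 genes higher in the table turned lower while 61 of the 714 lower ones turned higher. Of the 210 genes with at least 10 points in the table, 205 stayed higher with equal weights. No figures over the 5064 genes stand beside these counts by goat and with equal weights, so nothing is read from them. By share 17 of the 1461 genes were higher in matched nuclei of both Nubian goats and of neither Du'an goat, against 1.13% of the 5064 genes, and 0 showed the opposite pattern, against 0.257%. By CPM 33 and 2 did so, against 2.21% and 0.454%, so the first pattern stood near its background. The part of depth in these shares was not tested beyond thinning and CPM.

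**Figure D5:**
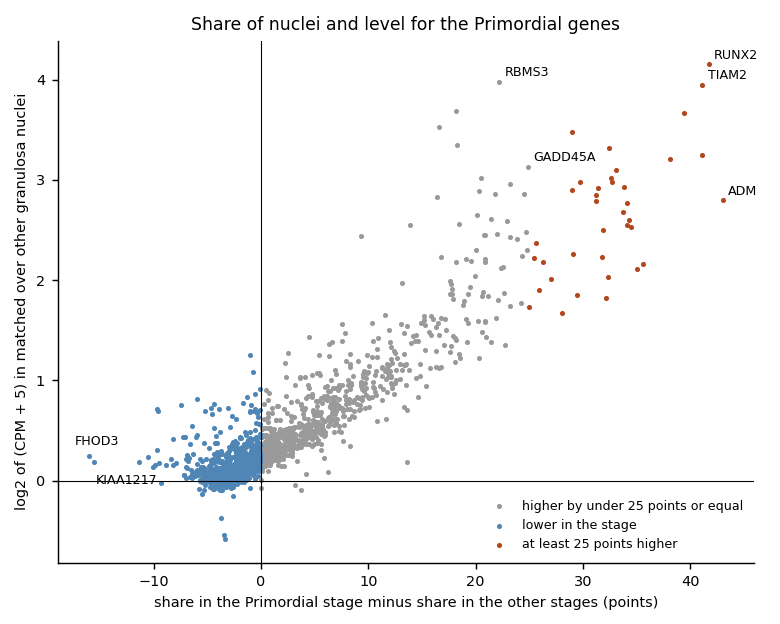
For each of the 1461 genes, log2 of CPM + 5 in matched over other GC nuclei (vertical axis) is plotted against the difference of the authors' shares (horizontal axis, points). Most of the 714 genes left of 0 lie above the horizontal line, 625 of them with a higher CPM in matched nuclei.

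FHOD3, the gene with the lowest difference of all, varied widely between goats. Its level in matched nuclei was 137 CPM in Du'an 1 and 58.8 CPM in Nubian 2, but 746 CPM in Du'an 2 and 900 CPM in Nubian 1, against 111, 94.9, 94.8 and 251 CPM in the other GC nuclei in the order Du'an 1, Nubian 2, Du'an 2 and Nubian 1. It was seen in 44.8% and 54.5% of matched nuclei of Du'an 2 and Nubian 1, more than in their other GC nuclei (26.2% and 41.0%), and in 15.2% and 8.19% in Du'an 1 and Nubian 2, less than in theirs (22.3% and 20.1%). TIMP3 was seen in a smaller share of matched nuclei in each goat (19.1%, 19.0%, 23.7% and 23.8% against 34.9%, 43.8%, 31.0% and 36.8%, in the order Du'an 1, Du'an 2, Nubian 1 and Nubian 2). Its level was nevertheless higher in matched nuclei in 3 of 4 goats, at 203, 149, 290 and 218 CPM against 186, 205, 165 and 212 CPM, lower only in Du'an 2.

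The goats differed in the mix of the 2 matched clusters. Cluster 3 held 2063 nuclei of Du'an 1, 172 of Du'an 2, 66 of Nubian 1 and 2693 of Nubian 2, and cluster 7 held 910, 181, 554 and 529. Of the 1461 genes, 339 had a higher CPM in cluster 7 than in cluster 3 in 4 of 4 goats and 370 a lower one, where 15.3% and 25.8% of the 5064 genes did so. The part of the depth of the clusters, given below, was not tested. RUNX2 measured 12416, 10385, 8386 and 7269 CPM in cluster 7 and 2160, 2038, 3477 and 1756 CPM in cluster 3. IGFBP5, which binds insulin-like growth factors, measured 902, 1662, 1526 and 648 CPM in cluster 7 and 97.6, 173, 373 and 88.9 CPM in cluster 3. ANKH, which exports pyrophosphate, the RNA-binding protein RBMS3 and FHOD3 were on the same side, with FHOD3 at 330, 999.8, 954 and 144 CPM in cluster 7 and 24.1, 91.6, 128 and 33.2 CPM in cluster 3. Genes on the side of cluster 3 included TOX, a nuclear factor best known from T cells, at 1624, 109, 734 and 1102 CPM against 243, 76.5, 99.7 and 86.8 CPM.

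By CPM, APOD and GALNT15 were also higher in cluster 3 in 4 of 4 goats, and almost only Du'an 1 and Nubian 2 supplied that cluster in number. By share of nuclei, GALNT15 went the other way in Du'an 2, at 6.4% in cluster 3 against 8.84% in cluster 7. Its level in cluster 3 rested on 17 UMIs in Du'an 2 and 9 in Nubian 1, and that of APOD on 20 in Nubian 1. Both were among the leading genes of cluster 3, so nothing is read from this direction. APOD measured 498, 136, 116 and 431 CPM in cluster 3 and 107, 22.0, 40.4 and 74.1 CPM in cluster 7. Depth moved with the clusters: the median was 3506, 1298, 1326.5 and 3030 UMIs in cluster 3 and 5554.5, 6515, 3632 and 5533 in cluster 7. In cluster 3 of Du'an 2, globin RNA (HBBC and HBM) made up 0.335% of UMIs, of which 1545 of 1720 came from 1 nucleus. Together with LOC102175876 (6820 UMIs), LOC102168680 (4209 UMIs) and LOC102168959 (2360 UMIs), which with HBBC were among the leading genes of cluster 3 and were at 0 in that cluster in the other goats but for 1 UMI of HBBC, these genes made up 2.94% of UMIs, carried by 7 of 172 nuclei. Their part in the values of that goat was not tested.

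Of 15 GC identity markers, 9 were seen in at least 25% of matched or of other GC nuclei, and 2 had a Primordial row, CDH2 and KITLG. Of 15 markers of early-follicle GCs 6 were seen that often and 3 had a row, these and SMAD3, a mediator of TGF-beta signals (64.5% against 52.7%). With 54.4% of the genes seen that often holding a row, nothing is read from these counts. Primary rows held 7 of the 15 identity markers, Secondary rows 4 and Antral rows 7. FOXL2 reached 0.99, 0, 1.14 and 0.33 CPM in matched nuclei of Du'an 1, Du'an 2, Nubian 1 and Nubian 2 and 1.86, 2.59, 2.16 and 2.97 CPM in the other GC nuclei. It was seen in 0.321% of matched nuclei, 1.15% of other GC nuclei and 0.146% of nuclei outside the GC set, so it was hardly detected anywhere. FSHR was lower in matched nuclei in each goat, at 1207, 740, 1108 and 861 CPM against 3293, 2780, 2002 and 2892 CPM, and so were NR5A2, GATA4, INHA and AMH, a hormone of small growing follicles (11.2, 15.8, 14.1 and 7.32 CPM against 66.4, 76.6, 22.2 and 37.1 CPM). Most matched nuclei still held FSHR: 80.4%, 64.5%, 78.8% and 68.7% in cluster 3 and 72.3%, 65.7%, 76.9% and 60.7% in cluster 7. It was seen in 95.3%, 93.2%, 89.5% and 92.3% of other GC nuclei, and in 29.6%, 43.6%, 46.0% and 27.2% outside the GC set. KITLG did not keep one direction: its level was 500, 502, 609 and 283 CPM against 452, 312, 343 and 581 CPM. LGR5, a stem-cell receptor, measured 9.01, 86.7, 14.5 and 1.2 CPM against 0.93, 1.01, 1.29 and 1.02 CPM. The 15 identity markers summed to 5956, 4821, 5569 and 5134 CPM in matched nuclei against 11236, 9254, 7740 and 11350 CPM, lower in each goat. The 15 early-follicle markers summed to 4850, 3908, 4661 and 3612 CPM against 5676, 3695, 2592 and 5318 CPM, higher only in Du'an 2 and Nubian 1. The defining marker FOXL2 was thus not at a usable level, and neither list was higher in matched nuclei of every goat. Primordial is used here only as the name of the authors' rows.

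None of 8 cumulus and none of 11 mural markers had a Primordial row, although 5 and 8 of them were seen in at least 25% of nuclei on either side. The mural markers summed to 815, 1710, 2008 and 1703 CPM in matched nuclei and 1665, 7041, 11629 and 5183 CPM in the others, and CYP19A1 to 1.46, 54.5, 160 and 31.4 CPM against 31.3, 697, 1977 and 883 CPM. The 9 cycling markers, each seen in under 25% of matched and of other GC nuclei, summed to 22.6, 57.3, 68.7 and 32.6 CPM against 702, 317, 739 and 882 CPM, the other GC nuclei including 2 clusters of cycling cells.

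Markers of other cell types were checked in the same nuclei. Among lists for theca, fibroblast, pericyte, blood and lymphatic endothelial, T or natural killer, macrophage, B, epithelial, ciliated, oocyte and red blood cells, none had a Primordial row, but only 1 of their genes, the lymphatic endothelial MMRN1, was seen in at least 25% of matched or of other GC nuclei, so the rest could hardly have had one. Stromal cells had TSHZ2 (55.6% against 39.9%) of 8 markers and smooth muscle had SYNPO2 (57.1% against 40.8%) of 8. Summed over matched nuclei, fibroblast markers stood at 58.3 CPM, against 911 CPM outside the GC set, and macrophage markers at 24.9 against 692 CPM. T cell markers stood at 28.9 against 1464 CPM and blood endothelial markers at 50.1 against 1111 CPM. Stromal markers stood at 1288 CPM against 736 CPM in the other GC nuclei and 2757 CPM outside, with TSHZ2 the most abundant. By goat they were higher in each, at 778, 1947, 651 and 1831 CPM against 630, 1129, 382 and 857 CPM. Smooth muscle markers, with SYNPO2 the most abundant, were higher in matched than in other GC nuclei of each goat, at 783, 692, 1560 and 1058 CPM against 560, 515, 703 and 487 CPM, and stood at 1878 CPM outside the GC set. Epithelial markers, led by CDH1, were higher in each goat too, at 12.7, 22.9, 38.5 and 11.7 CPM against 4.12, 3.57, 2.44 and 4.26 CPM (62.1 CPM outside), and so were theca markers, led by PTCH1, at 147, 189, 121 and 96.0 CPM against 60.6, 75.1, 111 and 88.3 CPM (104 CPM outside). Pericyte markers were higher in all goats but Du'an 1, at 48.0 against 23.7 CPM over all nuclei (324 CPM outside). Fibroblast markers stood at 46.8, 163, 157 and 39.8 CPM in matched nuclei against 59.7, 30.2, 104 and 36.7 CPM in other GC nuclei, and blood endothelial markers at 47.9, 161, 69.5 and 35.4 CPM against 65.3, 48.0, 53.1 and 56.7 CPM, so both were highest in Du'an 2 and Nubian 1, the goats with few matched nuclei. Of the measured markers, 1 of B cells and 5 of oocytes were at 0 in matched nuclei. Their part in the shares was not tested.

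The genes were then read by pathway, from lists chosen with earlier results of these data known, and beside a median difference of 0.1 points over all 1461 rows. Only genes seen in at least 25% of matched or of other GC nuclei, called readily seen here, could well have a row, and since 54.4% of all such genes had one, the counts of rows are descriptions of the lists. Of 8 genes that the study named for common progenitor GCs, which it chose on these samples, 7 were readily seen and 7 had a Primordial row, with a median difference of 22.7 points. They were higher in matched nuclei in 4 of 4 goats by share and by CPM: CDK14, SOX4, FOSL2 (an AP-1 subunit, 53.6% against 24.2%), CCND3 (40.6% against 18.7%), ARNT2 (51.0% against 28.3%), STAT3 (47.3% against 30.7%) and IGFBP5 (37.5% against 17.0%). FOSL2 was as even as SOX4, at 265, 281, 241 and 281 CPM against 67.4, 73.8, 73.9 and 57.9 CPM. The list of RUNX and other progenitor-side factors had 11 of 21 (15 readily seen), 8 of them higher, with a median of 12.7 points. RUNX1 belonged to it with nearly equal shares (50.9% and 50.6%).

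Among insulin and insulin-like growth factor genes, 4 of 18 had a row and 7 were readily seen. The receptor IGF1R was seen in most GC nuclei (92.2% and 88.9%), the adaptor IRS1 was lower in the stage (50.3% against 56.3%) and the adaptor IRS2 higher (37.6% against 15.5%). IGFBP5 varied most between goats, from 21.7% of matched nuclei in Nubian 2 and 37.8% in Du'an 1 to 55.5% in Du'an 2 and 75.5% in Nubian 1, against 11.6% to 20.6% of the other GC nuclei. No ligand had a row.

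Of 18 genes of the KIT and PI3K-FOXO pathway, by which oocytes and GCs control follicle activation, 11 were readily seen and 7 had a row, 5 higher and 2 lower in the stage, with a median of 1.2 points. PIK3CA, the catalytic subunit of PI3 kinase, was the largest (58.7% against 49.3%), and FOXO3, which holds primordial oocytes at rest, differed by few points (56.6% against 53.8%). Hippo genes, which restrain growth through YAP1, had 6 of 19 rows (6 readily seen), 4 higher, with AMOTL1, an inhibitor of YAP1, the largest (30.4% against 18.8%) and higher in each goat (103, 88.9, 73.3 and 93.5 CPM against 65.3, 42.9, 41.8 and 47.4 CPM). YAP1 itself stood at 70.5% and 72.7%.

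WNT genes had 6 of 31 rows (9 readily seen), 3 higher and 3 lower. The transcription factor LEF1 (33.1% against 12.2%) and the formin DAAM1, which acts in planar polarity (47.0% against 31.2%), were higher in 4 of 4 goats. CTNNB1, beta-catenin, was lower (57.0% against 58.4%). NOTCH genes had 3 of 18 (6 readily seen), the coactivator MAML2 being the largest (78.3% against 62.5%), and no receptor or ligand. TGF-beta, BMP and activin genes had 8 of 31 (16 readily seen), 4 higher and 4 lower with a median of 0.45 points, among them BMPR1B, the receptor mutated in prolific Booroola sheep, at 85.9% and 89.8% (but 2582, 3140, 3476 and 1455 CPM in matched against 1206, 1321, 1398 and 1222 CPM in other GC nuclei), and its partner BMPR2 at 65.1% and 69.2%.

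Of 18 pro-apoptotic genes 3 were readily seen, and 3 had a row, each higher in the stage: DAPK1, TP53INP1, a target of p53 (28.2% against 10.3%), and APAF1, the scaffold of the apoptosome (38.9% against 33.6%). BCL2, which blocks apoptosis, was the 1 row among 11 anti-apoptotic genes (3 readily seen), at 28.7% against 9.1%. It measured 200, 215, 155 and 110 CPM in matched nuclei and 59.2, 41.6, 16.3 and 28.6 CPM in the others, so genes on both sides of cell death stood higher. Of 18 cell-cycle brakes and D cyclins 4 were readily seen and 3 had a row, GADD45A, CCND3 and, lower in the stage, RB1 (32.7% against 37.5%). Of 21 immediate early and stress genes, 2 of them readily seen, only KLF6 did (35.0% against 12.5%). The list summed to 420, 1296, 672 and 397 CPM in matched nuclei and 729, 385, 279 and 473 CPM in the others, higher in matched nuclei only in Du'an 2 and Nubian 1, and its part in the values by goat was not tested.

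Matrix genes had 4 of 34 rows (8 readily seen), 3 of them lower in the stage (COL4A5, LAMC1 and NID2, all of basement membranes) and THBS1, an antiangiogenic glycoprotein, higher at 34.3% against 11.4%. None of 18 genes of cholesterol synthesis and uptake, 6 of them readily seen, had a row, and 2 of 18 of gonadotropin response and steroidogenesis (11 readily seen) did, both lower in the stage (ADCY9 at 51.1% against 55.3% and CREB1 at 32.4% against 34.3%). Of the 13 mitochondrially encoded genes, 10 of them readily seen, only ATP6 had one (76.9% against 63.3%), and it rests on 1 goat. ATP6 was seen in 74.8%, 97.7% and 79.0% of matched nuclei of Du'an 1, Nubian 1 and Nubian 2 and in 75.6%, 94.5% and 79.7% of their other GC nuclei, but in Du'an 2 in 0.850% and 0.451%. That goat supplied 4.92% of matched and 29.5% of other GC nuclei, and in it COX2 and ATP8 were also near 0 or at 0 while the remaining mitochondrial genes were not. The 13 genes summed to 5826, 25573, 23948 and 11324 CPM in matched nuclei and 6609, 13420, 14580 and 15108 CPM in the others, higher in matched nuclei only in Du'an 2 and Nubian 1. Of 10 genes of mineral and pyrophosphate handling ANKH (31.1% against 12.8%) and NT5E (48.8% against 56.1%), the 2 readily seen, had a row, and ANKH was higher in matched nuclei in each goat, at 612, 615, 642 and 345 CPM against 88.7, 36.0, 35.1 and 67.5 CPM.

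The study's main comparison is between breeds. In matched nuclei, edgeR's quasi-likelihood test on UMI counts summed per goat called none of 12942 genes between Nubian and Du'an goats at an adjusted p under 0.05 (0% called), and so none of the 1461 genes. At an unadjusted p under 0.05 it passed 221 genes (1.71%), 15 of them among the 1461. Over all GC nuclei it called 0 of 15099, with 403 (2.67%) at the unadjusted limit and 12 of the 1461. DESeq2 called 2 genes in matched nuclei, EYA2 lower and NEFM higher in Nubian goats, and 24 over all GC nuclei, none of the 1461 in either. Without a filter on low counts, edgeR called 182 of 19368 genes in matched nuclei (0.94%), 5 of them among the 1461. Over all GC nuclei it then called 0. In simulated counts with the spread of these goats the test recovered 0% of 200 genes changed 4-fold in matched nuclei and 9% over all GC nuclei, and with dispersions of 0.1 times that size 92% and 95%. Over all GC nuclei 10 unchanged genes were called as well, and with the smaller dispersions 23 in matched and 25 over all GC nuclei. With 2 goats against 2 that differ so widely within a breed, changes of that size were mostly missed.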

How the data were processed

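Nuclei of 4 ovaries, 1 library per goat, were sequenced with 10x 3' chemistry. The authors mapped reads with Cell Ranger (5.0.0 in their notes, 3.1.0 in the matrix headers) and deposited UMI counts per gene and nucleus. They also deposited 2 marker tables made with Seurat, whose shares of nuclei are fractions from 0 to 1, printed here as percent. The fold changes and p-values in those tables were not used.

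As the study describes, nuclei beyond 2 SD of their library's mean UMIs or genes (2355) or over 20% mitochondrial UMIs (1110) were left out. Unlike the study, which looked for doublets with Scrublet, no doublet caller was run here. Counts were log-normalized to 10000 UMIs and clustered (2000 variable genes without the 1461, 30 components, 20 neighbours, leidenalg 0.10.2, resolution 0.8). Clusters whose highest r was with the Primordial shares, and at least 0.9, were called matched, and those with r of at least 0.88 with any stage made up the GC set. Classes were named from marker lists. Of 47909 barcodes, 361 occurred in more than 1 library.

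Counts summed per goat were tested with edgeR 4.0.16 (TMM, quasi-likelihood, Benjamini-Hochberg) and, as an alternative, DESeq2 1.42.0, and the steps were tested on simulated data. Named genes were the 20 largest differences, 5 largest ratios, 5 highest shares and 5 lowest differences among genes with a symbol, plus list members; GADD45A and ANTXR1 stand at the limit. Members and lists were chosen with earlier results of these data known.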

Additional observations from a re-analysis of the deposited data

Results flagged for a closer look

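Of the 1461 genes, 17 were higher in matched than in other GC nuclei of both Nubian goats and of neither Du'an goat by share (background 1.13%) and 33 by CPM (background 2.21%), so the pattern stood near its background. Among them were 2 genes followed by goat, NID2 by share only and COL4A5 by CPM only. For NID2 the difference in the share of nuclei with a UMI was -0.318 and -18.0 points in the Du'an goats and 11.9 and 0.776 points in the Nubian goats, a gap of 15.5 points between the breed means. For COL4A5 the difference in level was -0.92 and -15.8 CPM in the Du'an goats and 94.6 and 23.9 CPM in the Nubian goats, a gap of 67.6 CPM. Neither difference between breeds was tested.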

How the results depend on the processing

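The breed difference in the share of matched nuclei (-2.66 points) ran from -32.2 to 26.9 points when 1 goat was left out, reaching 26.9 without Du'an 1 and 23.8 without Nubian 1, so its direction rests on single goats. It stayed negative at the other resolutions, without the UMI filter and with the 1461 genes kept for clustering. Instead of 0 genes between breeds, DESeq2 called 2 in matched nuclei and 24 over all GC nuclei. Without a filter on low counts edgeR called 182 of 19368 genes in matched nuclei (0.94%) and 0 over all GC nuclei. Of the 1461 Primordial genes it then called 5 in matched nuclei (ATP6, which is near 0 in Du'an 2 alone, NID2, MRO, FTH1 and SDK1). The cause was not tested. The replicate block called 0 in both sets, and since same-numbered goats are different animals and their deviations correlated at -0.277 and -0.305, the numbers pair nothing. A crossed pairing, added after seeing the data, called 0 and 1. Leaving out any goat called 0. Thinning moved the genes higher in matched nuclei from 809 to 1345 and CPM, added after seeing the data, to 1369; of the 714 lower rows from 69 to 600 and 625; and of those higher in 4 of 4 goats from 236 to 539 and 657. With a limit of 10 points 210 genes led, with 50 points 0, and 37 passed 25 points in both tables. Among the 109 genes followed by goat, thinning moved the mean difference of 30 by over 1 SD over goats, that of RUNX2 to 53.9, of TIAM2 to 20.8 and of RAB31 to 16.2 points. LUZP2, at -0.14 points, turned to 0.585 after thinning. The 2 goats per breed limit all breed comparisons, and the part of depth in them was not tested.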

Other observations

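KIT, the receptor for KITLG and better known from oocytes, had no Primordial row, yet its level was higher in matched than in other GC nuclei of each goat, at 122, 253, 266 and 67.8 CPM in Du'an 1, Du'an 2, Nubian 1 and Nubian 2 against 43.0, 18.5, 17.9 and 35.4 CPM. Of 10 oocyte genes, 5 were at 0 in matched nuclei and the list summed to 4.77 CPM. CDKN1B, a cell-cycle inhibitor of resting follicles, measured 14.9, 12.5, 9.92 and 13.7 CPM against 13.4, 11.7, 8.83 and 10.6 CPM, higher in matched nuclei in 4 of 4 goats with ranges over goats that overlap. Of the 5064 genes, 20.7% were higher in 4 of 4 goats by CPM. CDKN1B is 1 of the 15 early-follicle markers, whose sum was higher in matched nuclei only in Du'an 2 and Nubian 1, so nothing is read from it.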
